A study of Homo sapiens with 18 samples.

Results

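SNT-8 is an established human line of NK/T cell lymphoma, an aggressive tumour of cytotoxic lymphocytes. Its RNA was measured after icaritin, a prenylated flavonoid of Epimedium plants, and after DMSO, the solvent control. The members were chosen by their titles and labels: the 3 libraries given icaritin for 12 h and the 3 given DMSO for 12 h, 6 of the 18 libraries of the series. Both groups carry the genotype label WT and no other agent is named for either, and the dose of icaritin is not given in the sources used here. The other 12 libraries hold the same pair of groups in the NK/T lymphoma lines SNK-10 and SNT-16, 3 libraries each. All 6 SNT-8 libraries come from a single line at a single time, and nothing in the labels says that replicates were separate cultures. The p-values therefore measure only the spread between libraries of the same group, which may be technical. They come from a fit of all 18 libraries, so that spread is estimated together with the other lines.

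Levels are given as CPM, the counts of a gene relative to the scaled total of its library, always in the order of replicates 1, 2 and 3. Because CPM is not divided by gene length, it compares libraries for a gene and does not rank genes. Changes are log2 fold changes, icaritin minus DMSO, with a standard error (SE). Every adjusted p comes from edgeR's quasi-likelihood test with Benjamini-Hochberg adjustment over the 14396 genes tested. A gene is said to rise or fall only if that adjusted p is below 0.05. Spans of 4043 tested genes overlap those of another listed gene, and the split of reads between such partners is uncertain. Of the genes with such partners, CDKN1A, FADS2, IL6, MXD1, NOP16, NOP56, PLK1, SESN1, SLC7A11 and WDR3 share their span only with weakly counted partners. RNA from a whole culture cannot tell a change in some of the cells from a change in all of them.

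The cell type markers matched the label. All 11 markers listed for NK/T lymphoma were detected, and they summed to between 4429.5 and 4644.7 CPM with DMSO and between 3646.5 and 4018 CPM with icaritin. GZMB, which encodes the protease granzyme B, held 1399.9, 1378 and 1298 CPM with DMSO and 1644, 1567 and 1650.1 CPM with icaritin. Perforin, the pore protein encoded by PRF1, held 876, 853 and 864 CPM with DMSO and 688, 666 and 750.3 CPM with icaritin. Thus the granzyme libraries were all higher with icaritin and the perforin libraries all lower. Of 10 B and plasma cell markers, 3 were at 0 in all 6 libraries, MS4A1 and JCHAIN among them, and the summed level, 177.7 to 183.0 CPM with DMSO and 79.6 to 112.1 CPM with icaritin, was mostly MZB1. The 10 myeloid markers summed to between 47.85 and 49.98 CPM with DMSO and between 45.5 and 56.2 CPM with icaritin. The 10 epithelial and stromal markers summed to between 11.4 and 13.9 CPM with DMSO and between 23.5 and 26.5 CPM with icaritin, with COL1A1 at 9.88, 11.1 and 11.8 CPM after icaritin.

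The gene lists follow a few well-known programmes. When amino acids run short or unfolded proteins build up, kinases phosphorylate the initiation factor eIF2, general translation slows, and the transcription factor ATF4 is made and switches on genes for amino acid import, amino acid synthesis and tRNA charging. The p53 protein switches on inhibitors of the cell cycle, repair enzymes and death genes, and its target MDM2 in turn removes p53. Ribosomes are assembled in the nucleolus by large sets of factors whose genes are known targets of MYC. The kinase PLK1 drives entry into and passage through mitosis, and its RNA, like that of other mitotic genes, is made late in the cell cycle under a promoter element named CHR.

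Promoter stretches are shown here for genes whose RNA changed and whose sequence holds the element that textbooks assign to one of these programmes. They are the 250 bases before the gene start in the RefSeq annotation of GRCh38.p14, printed 5′ to 3′ on the gene's strand, with the element in capitals. AARS1 (chr16:70289507-70289756, minus strand) and IARS1 (chr9:92293698-92293947, minus strand) encode tRNA synthetases, and ATF3 (chr1:212565157-212565406, plus strand) encodes a stress factor. Their capitals mark the composite site of ATF4 and C/EBP, TGATGNAA or its reverse complement.
AARS1: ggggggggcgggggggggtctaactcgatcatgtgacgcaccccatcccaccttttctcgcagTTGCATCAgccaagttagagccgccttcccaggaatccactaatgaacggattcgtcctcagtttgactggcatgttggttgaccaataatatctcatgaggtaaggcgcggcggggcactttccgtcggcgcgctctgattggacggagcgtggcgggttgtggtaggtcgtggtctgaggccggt
IARS1: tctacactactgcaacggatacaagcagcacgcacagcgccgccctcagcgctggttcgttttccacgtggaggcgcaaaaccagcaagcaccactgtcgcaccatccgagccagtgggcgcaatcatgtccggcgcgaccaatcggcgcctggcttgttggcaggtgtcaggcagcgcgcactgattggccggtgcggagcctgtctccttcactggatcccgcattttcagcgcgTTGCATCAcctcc
ATF3: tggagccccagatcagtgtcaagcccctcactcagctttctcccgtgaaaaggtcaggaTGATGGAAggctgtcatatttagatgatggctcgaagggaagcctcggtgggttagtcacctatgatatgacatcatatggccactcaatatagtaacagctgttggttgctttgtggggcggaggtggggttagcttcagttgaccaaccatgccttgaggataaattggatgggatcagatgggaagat

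In UTP4 (chr16:69132399-69132648, plus strand), which encodes a part of the small subunit processome, the capitals mark the E-box CACGTG, the letters bound by MYC with MAX. The promoters of 3 mitotic genes follow, PLK1 (chr16:23678639-23678888, plus strand), CCNB2 (chr15:59104896-59105145, plus strand) and CDC20 (chr1:43358731-43358980, plus strand), with the CHR letters TTTGAA or TTCAAA in capitals. In PLK1 and in CCNB2 the capitals begin 29 bases before the gene start. HSPA8 (chr11:123062137-123062386, minus strand) encodes the constitutive HSP70 chaperone, and its capitals mark the heat shock element, read as GAA, TTC and GAA with 2 free bases between neighbours, in either direction.
UTP4: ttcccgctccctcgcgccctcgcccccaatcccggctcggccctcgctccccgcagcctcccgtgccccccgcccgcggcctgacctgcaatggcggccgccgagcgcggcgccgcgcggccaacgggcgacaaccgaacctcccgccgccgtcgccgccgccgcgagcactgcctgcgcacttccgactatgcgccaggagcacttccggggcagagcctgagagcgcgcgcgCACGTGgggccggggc
PLK1: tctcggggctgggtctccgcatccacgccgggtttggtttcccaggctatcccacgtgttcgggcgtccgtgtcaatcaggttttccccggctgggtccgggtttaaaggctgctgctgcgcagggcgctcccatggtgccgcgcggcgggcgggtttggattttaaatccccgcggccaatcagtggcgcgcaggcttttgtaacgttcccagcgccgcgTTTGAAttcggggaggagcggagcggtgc
CCNB2: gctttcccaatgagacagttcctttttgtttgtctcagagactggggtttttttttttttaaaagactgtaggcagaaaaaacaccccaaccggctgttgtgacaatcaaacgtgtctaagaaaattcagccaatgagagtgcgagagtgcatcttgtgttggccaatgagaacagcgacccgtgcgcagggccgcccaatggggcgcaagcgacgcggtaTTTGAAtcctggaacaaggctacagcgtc
CDC20: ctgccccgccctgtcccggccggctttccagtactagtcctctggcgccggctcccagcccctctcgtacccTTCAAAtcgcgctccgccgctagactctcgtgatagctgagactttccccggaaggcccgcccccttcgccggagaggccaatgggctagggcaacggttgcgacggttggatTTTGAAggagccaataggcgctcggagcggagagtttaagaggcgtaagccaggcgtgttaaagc
HSPA8: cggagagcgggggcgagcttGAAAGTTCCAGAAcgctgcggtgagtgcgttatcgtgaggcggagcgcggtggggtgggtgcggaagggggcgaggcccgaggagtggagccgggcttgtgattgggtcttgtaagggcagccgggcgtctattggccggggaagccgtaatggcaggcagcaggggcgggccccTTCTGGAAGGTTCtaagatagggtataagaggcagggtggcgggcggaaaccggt

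Each element was looked for on both strands in windows from 250 bases before to 50 bases after the gene start, and none of the letter strings contains another. TGATGNAA was in 3.67% of all 27305 promoters and in 15 of 64 tested genes (23.4%) of the ATF4, amino acid transporter, synthetase and amino acid enzyme lists that had a promoter. Of those 15 genes 13 rose and none fell, beside 24.0% and 25.0% of all 14396 tested genes, and of the 49 without the letters 29 rose and 16 fell. CACGTG was in 7.43% of all promoters and in 28 of 66 ribosome assembly genes (42.4%). With the letters 27 of 28 fell, and without them 36 of 38 fell. TTTGAA was in 15.4% of all promoters and in 27 of 45 mitotic genes (60.0%), of which 20 fell and 3 rose, against 15 falls and 1 rise among the 18 without it. The heat shock element was in 0.487% of all promoters and in 5 of 38 chaperone genes (13.2%), of which 4 fell. Of the 33 without it 22 fell and 3 rose. The sterol element TCACNCCAC was in 1.15% of all promoters and in 1 of 21 cholesterol genes (4.76%). That gene, SREBF2, did not pass, and of the 20 without the letters 15 fell and 2 rose. Among the 11223 promoters of tested genes alone, TGATGNAA was in 1.84%, CACGTG in 9.80% and TTTGAA in 10.5%. The heat shock element was in 0.356% of them and TCACNCCAC in 1.09%. These matches describe letters in a window and are not measured binding sites.

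The 6 libraries held between 9813786 and 10100453 expected counts each, and between 16996 and 17397 listed genes. Icaritin replicate 2 stood apart from the other icaritin libraries. Across genes whose mean count reached 50, its chi-square per gene was 5.92 against replicate 1 and 8.11 against replicate 3, beside 3.04 between replicates 1 and 3 and 1.83 to 2.41 between DMSO libraries. On the first principal component, which held 84.7% of the variance, it lay at 26.67, the other icaritin libraries at 18.07 and 18.24, and the DMSO libraries between -21.08 and -20.93. It thus lay further from DMSO than its partners on this component. On the second, with 7.21% of the variance, it lay at -11.06 and its partners at 4.239 and 9.215, with the DMSO libraries between -1.895 and 0.1816. The mitochondrial 16S rRNA gene RNR2 took 1.299%, 1.327% and 1.19% of the counts with DMSO and 2.217%, 2.783% and 2.117% with icaritin. That is 1.27 ± 0.0724% against 2.37 ± 0.359% (SD, n = 3 each), a difference of 1.10 percentage points with an exact two-sided permutation p of 0.1, the smallest that 3 against 3 libraries allow. Without both mitochondrial rRNA genes in the fit 7052 genes passed, beside 7062.

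Icaritin changed the RNA of about as many genes as it left below the threshold. Of 14396 genes tested, 7062 passed (49.1%), of which 3460 rose (24.0%) and 3602 fell (25.0%). Most changes were small, the genes that passed having a median absolute change of 0.44 on the log2 scale, and the median of all tested genes was 0.02. At least 2-fold changes were rarer, 414 rises (2.88%) and 329 falls (2.29%). All 3 icaritin libraries lay above all 3 DMSO libraries for 3821 genes (26.5%) and below them for 3968 genes (27.6%). Without icaritin replicate 2, 6555 genes passed, 3192 up and 3363 down, and 409 rises and 268 falls were at least 2-fold. Falls outnumbered rises among abundant genes, and the reverse held among weakly counted ones: of 2238 genes between 100 and 1000 CPM, 28% rose and 44.3% fell, and of 3902 genes between 1 and 10 CPM, 18.2% rose and 9.4% fell.

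Ranked only over genes whose icaritin and DMSO libraries did not overlap, the largest rise at 10 CPM or more was that of KLHDC7B. This kelch domain gene held 2.33, 1.82 and 2.90 CPM with DMSO and 21.4, 15.9 and 24.0 CPM with icaritin, a change of 3.11 (SE 0.199, adjusted p = 4.88e-14). RGS1, which shortens G protein signals from chemokine receptors, held 6.17, 4.96 and 4.91 CPM and 41.2, 48.3 and 38.9 CPM, a change of 2.998 (SE 0.149, adjusted p = 9.22e-14). In both genes every icaritin library was several times above every DMSO library, and for KLHDC7B replicate 2 was the lowest of the icaritin libraries. TNFSF4, the gene of the costimulatory OX40 ligand, held 7.29, 8.10 and 6.31 CPM with DMSO and 40.9, 68.7 and 35.5 CPM with icaritin, a change of 2.74 (SE 0.258, adjusted p = 1.02e-06). CCNG2, which encodes the growth-inhibitory cyclin G2, held 10.5, 8.91 and 9.01 CPM and 56.3, 71.6 and 51.1 CPM, a change of 2.65 (SE 0.112, adjusted p = 3.21e-19). Icaritin replicate 2 was the highest library in both genes. BNIP3L encodes a receptor that marks mitochondria for autophagy, and it held 24.0, 22.3 and 20.3 CPM with DMSO and 109, 177 and 91.5 CPM with icaritin, a change of 2.50 (SE 0.216, adjusted p = 4.28e-07). The remaining rises of the 15 were NECTIN4 (2.43), KLHL24 (2.34), the T cell inhibitory receptor gene CTLA4 (2.31), PPP1R15A (2.31), GADD45A (2.26), ARRDC3 (2.11), DDIT3 (2.08), CREBRF (2.07), JMY (2.03) and SESN1 (2.004), each with its change in brackets.

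Ranked in the same way, the largest fall among genes of at least 10 CPM was that of TSPOAP1. This gene held 39.5, 50.7 and 48.2 CPM with DMSO and 6.39, 3.81 and 6.88 CPM with icaritin, a change of -3.01 (SE 0.153, adjusted p = 1.15e-14). CXCR3, a chemokine receptor of activated T and NK cells, held 96.4, 106 and 95.8 CPM and 13.5, 9.13 and 17.9 CPM, a change of -2.88 (SE 0.133, adjusted p = 7.11e-12). Both sets of libraries lay wide apart, and icaritin replicate 2 was the lowest in both genes. CCL2, the gene of a monocyte-attracting chemokine, held 149, 147 and 152 CPM with DMSO and 29.3, 21.3 and 33.4 CPM with icaritin, a change of -2.41 (SE 0.0794, adjusted p = 2.62e-21). SLC39A10, a zinc importer gene, held 38.5, 41.2 and 43.0 CPM and 8.38, 9.23 and 9.24 CPM, a change of -2.19 (SE 0.104, adjusted p = 5.18e-20). For this gene the 3 icaritin libraries lay close together and replicate 2 did not stand out. TANC2 (-2.58), HPDL (-2.56), the cyclin B1 gene CCNB1 (-2.20), BRINP2 (-2.01), the macrophage elastase gene MMP12 (-1.95), the mitotic kinesin gene KIF20A (-1.89), FAM72D (-1.88), the cytokine genes OSM (-1.86) and IL6 (-1.85), the snoRNA host gene SNHG3 (-1.85) and LINC00892 (-1.84) complete the 15 falls. FAM72D has near-identical copies, so its count is uncertain. TSPOAP1, TNFSF4, ARRDC3, KIF20A, SNHG3, FAM72D and DDIT3 share part of their span with other listed genes. DDIT3 lies over MARS1, which held a mean of 299.4 CPM.

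**Figure D1:**
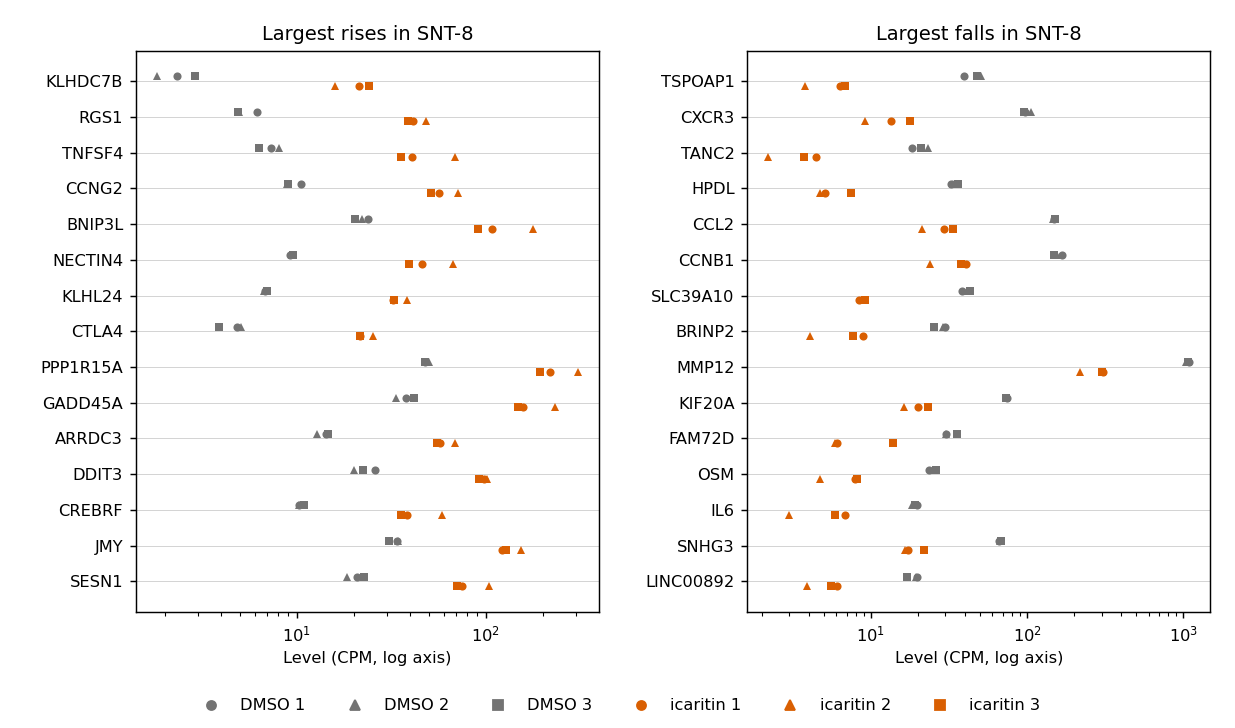
CPM on a log axis of the 15 largest rises and the 15 largest falls at 10 CPM or more, with a point for each of the 3 DMSO and 3 icaritin libraries of SNT-8. All 30 genes were chosen to have groups that do not overlap, and the changes run from 3.11 for KLHDC7B to -3.01 for TSPOAP1.

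TSC22D3, the glucocorticoid-induced leucine zipper gene, was the only gene that went from a mean below 1 CPM with DMSO to at least 5 CPM with icaritin, and no gene went the other way. It held 0.708, 0.810 and 0.801 CPM with DMSO and 5.79, 6.32 and 7.27 CPM with icaritin, a change of 3.04 (SE 0.226, adjusted p = 2.41e-14). The glucocorticoid receptor gene NR3C1 held 59.6, 65.9 and 69.3 CPM and 99.9, 111 and 104 CPM, a change of 0.69 (SE 0.0601, adjusted p = 1.61e-12). Among other known targets of that receptor, the kinase gene SGK1 rose (1.51) and the immunophilin gene FKBP5 fell (-0.37).

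PLK1 lost most of its RNA. It held 248, 251 and 236 CPM with DMSO and 82.4, 42.4 and 89.2 CPM with icaritin, a change of -1.78 (SE 0.177, adjusted p = 1.83e-06). Every icaritin library was below every DMSO library, and replicate 2 was lowest. Without replicate 2 the change was -1.51. Of the 20 tested mitotic kinases, cyclins and their activators, 13 fell, 2 rose and 5 did not pass, beside the 25.0% of all genes that fell. Their median log2 fold change was -0.38, beside 0.02 for all genes (list medians here and below are over members of at least 1 CPM). AURKA, the kinase that activates PLK1 at the centrosome, held 115, 104 and 104 CPM with DMSO and 39.6, 23.3 and 43.6 CPM with icaritin, a change of -1.60 (SE 0.153, adjusted p = 1.06e-06). The PLK1 activator gene BORA fell by less (-0.40), as did AURKB (-0.48), BUB1 (-0.61), BUB1B (-0.59) and the cyclin genes CCNA2 (-0.56) and CCNB2 (-0.67). CDK1, the kinase that cyclin B activates, held 119.5, 105 and 113 CPM with DMSO and 115, 106 and 110.1 CPM with icaritin, a change of -0.03 (SE 0.0566, adjusted p = 0.747) that did not pass. The cyclin B1 gene CCNB1, at 167, 156 and 149 CPM with DMSO and 40.8, 23.8 and 37.8 CPM with icaritin, differed in this from its kinase. BORA shares its span with DIS3 (346 CPM), and CCNA2 shares its own with EXOSC9 (91.5 CPM).

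Most kinesin, checkpoint and anaphase genes fell as well. Of 13 mitotic kinesin genes, 11 fell and KIF15 rose (0.14, adjusted p = 0.0409), with a median of -0.34. KIF15 did not pass without DMSO replicate 1 or 2 or icaritin replicate 1 or 2 (adjusted p 0.0581 to 0.13). CENPE, the kinesin that carries chromosomes to the spindle equator, held 128, 131 and 142 CPM with DMSO and 58.9, 37.3 and 51.5 CPM with icaritin, a change of -1.44 (SE 0.113, adjusted p = 3.63e-08). Of 22 checkpoint, anaphase and cytokinesis genes, 17 fell and 2 rose, with a median of -0.44. Over all tested genes 25.0% fell and 24.0% rose. CDC20, which activates the anaphase-promoting complex, held 167, 169.6 and 164 CPM and 53.5, 38.1 and 56.2 CPM, a change of -1.76 (SE 0.0770, adjusted p = 1.79e-16). SGO2, a protector of centromere cohesion (-1.18), UBE2S, a ubiquitin enzyme of the anaphase complex (-0.999), and the securin gene PTTG1 (-0.81) fell as well. The 31 kinetochore and centromere genes were split: 11 fell and 9 rose, with a median of -0.02. Of the outer kinetochore genes NUF2 fell (-0.83) and SPC24 rose (0.53), and the centromere gene CENPU rose too (0.47). UBE2S lies beside the ribosomal protein gene RPL28 in an overlapping span (604 CPM), and CENPU overlaps PRIMPOL.

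Genes that act before mitosis did not fall as a group. Of 35 origin licensing and fork genes, 17 rose and 7 fell, with a median of 0.09. The licensing factor gene CDT1 held 90.7, 92.8 and 91.2 CPM with DMSO and 181, 201 and 204 CPM with icaritin, a change of 1.09 (SE 0.0504, adjusted p = 2.11e-20). Its partner CDC6 did not pass (0.07, adjusted p = 0.422). Homologous recombination and Fanconi genes moved mostly upward, with 22 rises and 4 falls among 30 tested, beside the 24.0% of all genes that rose, and a median of 0.30. PALB2 (0.78), BARD1 (0.62) and BRCA2 (0.46) rose. Without icaritin replicate 2 the falls in this list were FANCL and MUS81 only. Checkpoint signalling genes rose in 7 of 23 cases and fell in 6 (30.4% and 26.1%), near the shares of all genes. The checkpoint kinase gene ATR fell (-0.59) with its partner ATRIP (-0.76), and CLSPN, an adaptor of that pathway, rose (0.29). Of 33 excision and end-joining genes 14 fell and 8 rose, the end-joining genes LIG4 (-0.80) and XRCC5 (-0.48) among the falls. Among G1 genes, of which 10 of 25 rose and 8 fell, the repressor gene E2F7 (0.89) and the kinase gene CDK6 (0.53) rose and the cyclin E gene CCNE1 fell (-0.69). ATRIP shares its span with TREX1.

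Nearly all tested p53 targets of arrest and feedback rose. In the arrest and feedback list 17 of 18 tested genes rose and none fell, beside 24.0% of all genes, with a median of 0.96. TP53INP1, under 1 CPM in every library, did not pass. MDM2, which encodes the ubiquitin ligase of p53, held 319.7, 304 and 317 CPM with DMSO and 691, 816 and 674 CPM with icaritin, a change of 1.21 (SE 0.0519, adjusted p = 3.22e-21). CDKN1A, which encodes the kinase inhibitor p21, held 316, 324 and 306 CPM and 377, 454 and 374 CPM, a change of 0.35 (SE 0.0567, adjusted p = 4.22e-06). The groups did not overlap in CDKN1A, whose rise was among the smaller ones of its list. GADD45A, a growth arrest gene, held 37.7, 33.4 and 41.5 CPM with DMSO and 158, 234 and 147 CPM with icaritin, a change of 2.26 (SE 0.157, adjusted p = 4.23e-08). ZMAT3 (1.46), the cyclin G1 gene CCNG1 (1.35), the ribonucleotide reductase gene RRM2B (1.26) and the antiproliferative genes BTG1 (1.16) and BTG2 (0.96) rose as well. MDM2 and CCNG1 overlap weaker genes in the annotation.

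Rises outnumbered falls among death-promoting genes and among BCL2 survival genes. In the p53 death list 9 of 14 rose and BID fell, beside 24.0% of all tested genes that rose and 25.0% that fell. BBC3, the gene of the BH3-only protein PUMA, held 20.6, 21.5 and 23.6 CPM with DMSO and 68.2, 90.1 and 70.7 CPM with icaritin, a change of 1.80 (SE 0.0869, adjusted p = 7.19e-19). The death receptor gene FAS held 178, 181 and 181 CPM and 343, 419 and 329.5 CPM, a change of 1.01 (SE 0.0593, adjusted p = 2.06e-15). TNFRSF10B, the gene of death receptor DR5 (0.81), PMAIP1, the gene of NOXA (0.87), and BCL2L11, the gene of BIM (0.95), rose too. Of 10 death-promoting BCL2 family genes 6 rose and BID fell. BAX, the pore-forming effector, did not pass (0.09, adjusted p = 0.201), except without icaritin replicate 2 (0.14, adjusted p = 0.0320). Of 5 survival genes of the BCL2 family 3 rose and 1 fell. BCL2 held 60.2, 69.1 and 70.9 CPM with DMSO and 127, 133 and 121 CPM with icaritin, a change of 0.93 (SE 0.0588, adjusted p = 2.24e-16). MCL1 (0.27) and BCL2L1 (0.27) rose by less, with BCL2L1 at 0.16 without icaritin replicate 2. BCL2A1, another survival gene, fell from 3.84, 4.15 and 4.004 CPM to 1.497, 0.803 and 1.47 CPM (-1.66, adjusted p = 3.21e-06). In the list of caspases, death receptors and apoptosis inhibitors 7 of 23 rose and 7 fell (30.4% each), near the shares of all genes. BIRC3, an inhibitor of apoptosis (-0.68), and TNFSF10, the gene of the death ligand TRAIL (-0.87), fell. FAS shares its span with ACTA2, and TNFRSF10B with RHOBTB2. Without icaritin replicate 2, BID did not pass (adjusted p = 0.0601).

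Nearly all tested ATF4 pathway factors and feedback genes rose. Of 12 tested factors and feedback genes 11 rose and none fell, beside 24.0% of all genes, with a median of 0.87. ATF4 held 367, 345 and 355 CPM with DMSO and 536, 511 and 512 CPM with icaritin, a change of 0.55 (SE 0.0443, adjusted p = 2.56e-13). SESN2, an inhibitor of mTORC1 signalling, held 58.5, 56.2 and 56.5 CPM and 211, 203 and 234 CPM, a change of 1.92 (SE 0.0578, adjusted p = 1.23e-25). TRIB3, a pseudokinase that restrains ATF4, held 36.3, 37.1 and 33.3 CPM and 118, 123 and 131 CPM, a change of 1.80 (SE 0.0675, adjusted p = 3.99e-23). In all 3 genes the groups lay apart and icaritin replicate 2 lay near its partners. ATF3 (1.80), DDIT3, the gene of CHOP (2.08), and PPP1R15A, which encodes the GADD34 subunit that reverses eIF2 phosphorylation (2.31), rose too. CHAC1, a usual ATF4 target, was at 0 in 5 libraries. NUPR1 had 4 counts over all 6 libraries and was not tested. Of the 12 eIF2 kinase and eIF2 complex genes 9 fell and 3 rose. EIF2AK3, the gene of the kinase PERK, rose (0.71), and EIF2AK4, the gene of the amino acid sensor GCN2, fell (-0.71).

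Amino acid import, tRNA charging and one-carbon metabolism rose in part. Of 16 transporter genes 11 rose and 3 fell, beside 24.0% and 25.0% of all tested genes, with a median of 0.42. SLC1A4, a neutral amino acid carrier, held 87.5, 82.1 and 79.1 CPM with DMSO and 207, 211 and 227 CPM with icaritin, a change of 1.38 (SE 0.0542, adjusted p = 1.73e-22). SLC3A2 (0.99) and SLC7A5 (0.72), which together form the leucine carrier, and the cystine carrier gene SLC7A11 (0.87) rose. Of 20 cytosolic synthetase genes 14 rose and 6 fell. AARS1, whose promoter is printed above, held 231, 232 and 234 CPM with DMSO and 469, 447 and 460.3 CPM with icaritin, a change of 0.98 (SE 0.0412, adjusted p = 1.28e-21). IARS1 (0.68), GARS1 (0.91) and WARS1 (0.76) rose, and HARS1 fell (-0.42). The mitochondrial synthetases went the other way, with 11 of 17 falling and 1 rising, and a median of -0.28. MARS2 was among the falls (-1.36).

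Of the enzymes of serine and one-carbon metabolism 8 of 14 rose and 3 fell, beside 24.0% and 25.0% of all tested genes. PSAT1, the second enzyme of serine synthesis, held 224, 187 and 190.4 CPM with DMSO and 513, 524 and 494 CPM with icaritin, a change of 1.35 (SE 0.0553, adjusted p = 7.21e-21). PHGDH, the enzyme before it, had no counts in any of the 6 libraries. The mitochondrial folate enzyme gene MTHFD2 held 305, 284 and 295 CPM and 665, 664 and 602 CPM, a change of 1.13 (SE 0.0515, adjusted p = 1.64e-20), and SHMT2 rose too (0.80). CTH, which makes cysteine from cystathionine, held 28.9, 26.9 and 25.5 CPM with DMSO and 99.99, 106 and 104 CPM with icaritin, a change of 1.93 (SE 0.0665, adjusted p = 3.48e-24). MAT2A, which makes S-adenosylmethionine, went down from 452, 456 and 438 CPM to 201, 182 and 198 CPM, a change of -1.21 (SE 0.0470, adjusted p = 1.05e-22). ASNS, the asparagine synthetase gene and a textbook ATF4 target, held 1.72, 1.92 and 1.70 CPM with DMSO and 1.80, 1.60 and 1.47 CPM with icaritin and did not pass (-0.13, adjusted p = 0.731). In the list of amino acid sensing and mTORC1 genes 12 of 26 rose, 5 fell and 9 did not pass. TSC1, which restrains mTORC1 (0.85), and the partners FNIP1 (1.12) and FLCN (0.79) rose, while NPRL2, of a complex that restrains mTORC1, fell (-0.57). MAT2A and MTHFD2 overlap weaker genes in the annotation.

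**Figure D2:**
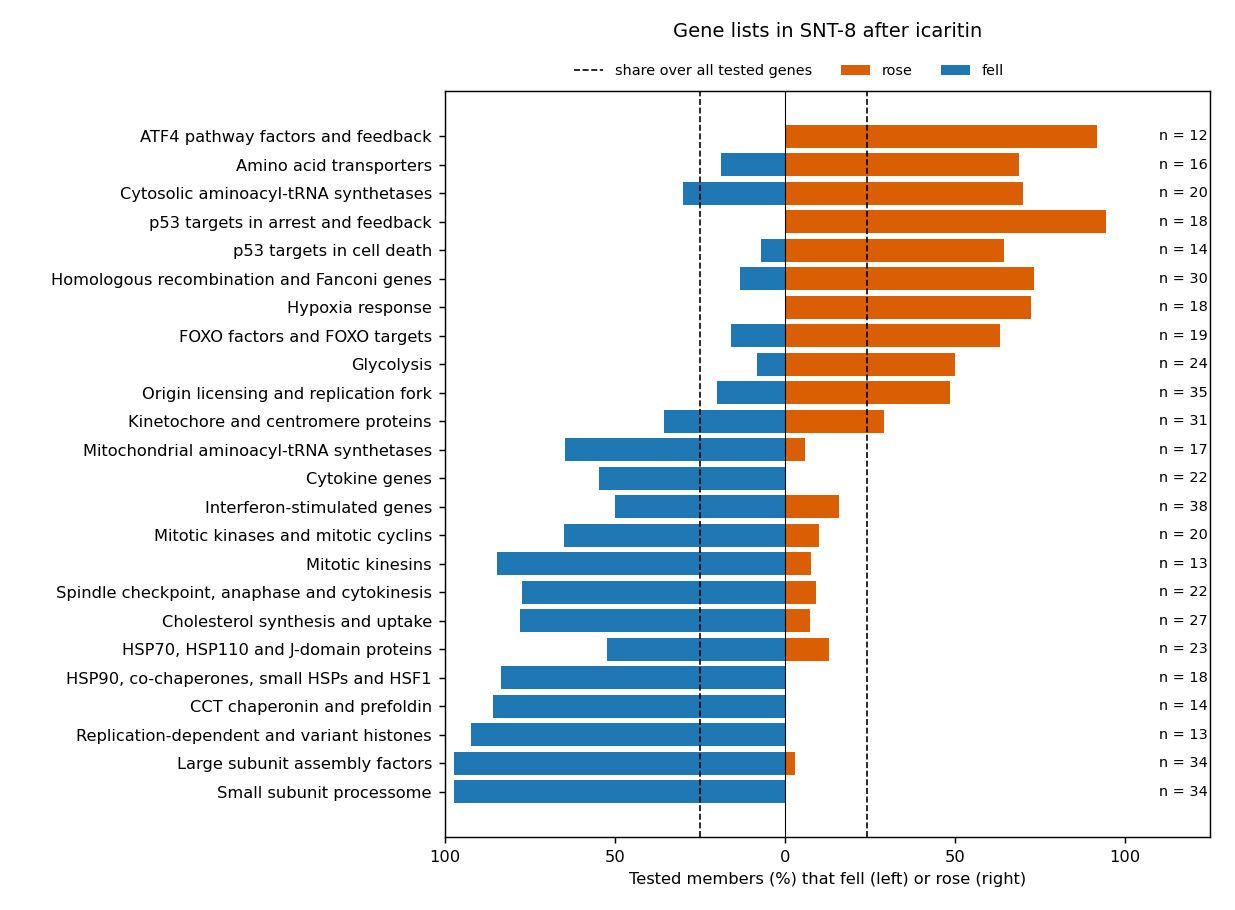
Percent of tested members that rose (to the right) or fell (to the left) with icaritin in SNT-8 for 24 gene lists, with dashed lines at the 24.0% and 25.0% of all 14396 tested genes. The small subunit processome has 33 falls among 34 members, and the p53 arrest list 17 rises among 18.

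Nearly every ribosome assembly gene that was tested fell. In the small subunit processome 33 of 34 tested genes fell and none rose, beside 25.0% of all genes, with a median of -0.77. WDR3, a scaffold of the processome, held 108, 112 and 109.7 CPM with DMSO and 45.9, 40.4 and 42.9 CPM with icaritin, a change of -1.35 (SE 0.0589, adjusted p = 3.42e-21). NOB1, which makes the last cut of 18S rRNA, did not pass (-0.05, adjusted p = 0.509). Of the large subunit assembly factors 33 of 34 fell and RSL24D1 rose, with a median of -0.61. NOP16 held 96.5, 93.5 and 92.4 CPM with DMSO and 33.6, 27.4 and 31.0 CPM with icaritin, a change of -1.62 (SE 0.0662, adjusted p = 5.88e-22). The groups lay far apart in both genes. Of the snoRNP proteins, which guide rRNA modification, 14 of 15 fell, NOP56 among them (-1.01), and the methyltransferase gene FBL did not pass (-0.06, adjusted p = 0.323). MYC, a regulator of these genes, held 208, 197 and 194 CPM with DMSO and 85.3, 68.0 and 93.8 CPM with icaritin, a change of -1.28 (SE 0.0767, adjusted p = 1.83e-12). Of the MYC, MAX and MXD list 3 of 10 rose and 4 fell: the antagonist genes MXD1 (1.82) and MXI1 (1.18) rose, and the related MXD3 fell (-0.37). MXD3 shares its span with PRELID1 (323.9 CPM).

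Genes of the polymerases of rRNA and tRNA, nucleotide synthesis and nuclear transport were measured next. Falls outnumbered rises in each of these lists, though narrowly among the pyrimidine genes. Over all tested genes 24.0% rose and 25.0% fell. For RNA polymerase III 11 of 21 genes fell and none rose, with POLR3G at -1.30. For RNA polymerase I 7 of 14 fell and 2 rose, with POLR1B at -0.81. Of the purine synthesis genes 10 of 14 fell and none rose, among them PPAT, the committing enzyme (-0.69). Of the pyrimidine genes 6 of 17 fell and 5 rose (35.3% and 29.4%), not far from the shares of all genes, with a median of 0.02. The thymidine kinase gene TK1 (0.54) and the thymidylate synthase gene TYMS (0.44) rose, and the CTP synthase gene CTPS1 fell (-0.43). In nuclear transport 14 of 23 fell, including the importin gene KPNA2 (-1.16), while XPOT, the exporter of tRNA, rose (0.68). Mitochondrial ribosomal protein genes fell in 57 of 78 cases and rose in 3, with a median of -0.31 over all tested members. Genes for cytosolic ribosomal proteins did not follow: 21 of 85 rose, 4 fell and 60 did not pass. Without icaritin replicate 2 the counts were 13 and 6. Of 52 genes picked by proteasome symbols, PSMC3IP among them, 40 fell and 2 rose, with a median of -0.25. PPAT shares its span with PAICS (440 CPM), TYMS with ENOSF1 (299.5 CPM) and POLR3G with MBLAC2.

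Most genes of the HSP90 and chaperonin lists fell, and those of the endoplasmic reticulum (ER) were split. HSPA8, whose promoter is printed above, held 4106, 4273 and 4122 CPM with DMSO and 1921, 1619 and 1857 CPM with icaritin, a change of -1.21 (SE 0.0466, adjusted p = 8.77e-23). HSP90AB1 (-0.77) and HSP90AA1 (-0.72), the cytosolic HSP90 genes, and their co-chaperone STIP1 (-1.08) fell. In STIP1 all 3 icaritin libraries lay below all DMSO libraries. Of the HSP90 and co-chaperone list, which also holds 3 mitochondrial chaperone genes, 15 of 18 fell and none rose, with a median of -0.35. Over all tested genes 25.0% fell and 24.0% rose. HSF1, the heat shock factor gene, did not pass (0.02, adjusted p = 0.788). Of the HSP70 and J-domain list 12 of 23 fell, 8 did not pass and 3 rose, or HSPA13 alone without icaritin replicate 2. The CCT chaperonin, which folds actin and tubulin, and prefoldin fell in 12 of 14 genes and rose in none. CCT2 held 383, 374 and 381 CPM with DMSO and 199, 181 and 179 CPM with icaritin, a change of -1.03 (SE 0.0507, adjusted p = 1.50e-19). Among ER genes HSPA5, which encodes the chaperone BiP (-1.04), HSP90B1 (-0.95) and CALR (-0.74) fell, and the whole ER list was split, 9 up and 11 down of 27.

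Most cholesterol genes and some fatty acid genes fell. Of the cholesterol list 21 of 27 fell, CYP51A1 and STARD4 rose, and the median was -0.60. By comparison, 25.0% of all tested genes fell and 24.0% rose. LSS, which closes the sterol ring, held 59.9, 60.05 and 56.6 CPM with DMSO and 24.6, 23.7 and 26.5 CPM with icaritin, a change of -1.24 (SE 0.0700, adjusted p = 8.95e-18). IDI1, which makes an isoprenoid building block, fell too (-1.05). HMGCS1 held 330.3, 319.7 and 341 CPM and 189.7, 256 and 179 CPM, a change of -0.66 (SE 0.0940, adjusted p = 2.82e-05). In HMGCS1 icaritin replicate 2 was the closest to DMSO, in contrast to its place among the mitotic genes. SREBF2, the gene of the sterol regulator, did not pass (0.01, adjusted p = 0.834). In the fatty acid list 8 of 17 fell and 3 rose. FASN, the fatty acid synthase gene, held 614, 657 and 630.1 CPM with DMSO and 242, 227 and 276 CPM with icaritin, a change of -1.35 (SE 0.0567, adjusted p = 1.50e-19), and the desaturase gene SCD fell too (-0.89). FADS2 was low and rose, from 4.76, 7.09 and 5.81 CPM to 14.8, 13.7 and 15.2 CPM (1.31).

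Most hypoxia genes rose, and no tested factor of mitochondrial transcription and translation did. Of the hypoxia list 13 of 18 rose and none fell, beside 24.0% and 25.0% of all tested genes, with a median of 0.64. PDK1, which inhibits pyruvate dehydrogenase, held 10.3, 8.71 and 10.2 CPM with DMSO and 27.5, 46.2 and 25.9 CPM with icaritin, a change of 1.77 (SE 0.190, adjusted p = 7.70e-07). The vessel growth factor gene VEGFA held 29.0, 28.7 and 32.1 CPM and 65.4, 71.9 and 58.7 CPM, a change of 1.12 (SE 0.0741, adjusted p = 7.13e-16). Replicate 2 was highest in both, far above its partners in PDK1. CA9, a usual hypoxia marker, had 1 count over all 6 libraries. Of the glycolysis genes 12 of 24 rose and 2 fell, or 4 without icaritin replicate 2, with PGK1 at 0.72 and LDHA at 0.18, both past the threshold. LDHA did not pass without DMSO replicate 1, 2 or 3 or icaritin replicate 2 (adjusted p 0.0559 to 0.241), and its change was 0.07 without the latter. Of the mitophagy genes 8 of 17 rose and 3 fell, BNIP3L among the rises. Of the mitochondrial transcription and translation factors 13 of 23 fell and none rose. The helicase gene TWNK held 34.7, 39.7 and 40.5 CPM with DMSO and 18.5, 16.3 and 15.3 CPM with icaritin, a change of -1.20 (SE 0.0932, adjusted p = 7.78e-14), and the polymerase gene POLRMT fell too (-0.77). The mitochondrial rRNA genes themselves rose, RNR2 by 0.85 and RNR1 by 0.72 on the log2 scale. Of 15 mitochondrially encoded genes sought by name, these were the only 2 listed. The other 13 had no counts, so the values do not cover mitochondrial mRNA.

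Targets of FOXO factors, autophagy and lysosome genes rose in part. In the FOXO list 12 of 19 rose and 3 fell, beside 24.0% and 25.0% of all tested genes, with a median of 0.58. FOXO3 itself rose (0.89) and FOXO1 fell (-0.38). KLHL24 held 6.78, 6.68 and 7.01 CPM with DMSO and 32.3, 38.5 and 32.7 CPM with icaritin, a change of 2.34 (SE 0.117, adjusted p = 2.06e-19). TXNIP, an alpha-arrestin that limits glucose uptake, held 8.30, 7.90 and 8.01 CPM and 27.8, 22.0 and 33.3 CPM, a change of 1.78 (SE 0.123, adjusted p = 1.11e-14), and its relative ARRDC3 rose to a similar degree (2.11). In TXNIP icaritin replicate 2 was the lowest of its group and still above all DMSO libraries. Of the autophagy genes 13 of 31 rose (41.9%) and 5 fell (16.1%), with a median of only 0.14. WIPI1 (1.08) and the LC3 gene MAP1LC3B (0.99) were among the rises. Of the lysosome genes 16 of 28 rose and 5 fell, including LAMP1 (0.39) up and the protease gene CTSS down (-0.46). WIPI1 shares its span with PRKAR1A (281 CPM).

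Nearly all tested histone genes fell, and so did most genes of the SR protein list. Of 13 tested histone genes 12 fell and none rose, beside 25.0% and 24.0% of all tested genes, with a median of -1.22. The replication-dependent H2B gene H2BC12 held 14.9, 13.7 and 15.1 CPM with DMSO and 6.19, 3.51 and 4.33 CPM with icaritin, a change of -1.64 (SE 0.141, adjusted p = 1.38e-12). The groups lay apart, and the linker histone gene H1-10 (-1.23) fell too. Of the SR proteins and their kinases 13 of 21 fell and 5 rose. The splicing factor gene SRSF1 held 715, 670.0 and 723 CPM and 428, 407 and 385 CPM, a change of -0.79 (SE 0.0469, adjusted p = 3.54e-17), while the kinase genes CLK1 (0.97) and CLK4 (0.91), which phosphorylate such factors, rose. HEXIM1, the inhibitor of the elongation kinase P-TEFb, fell (-1.09), and so did its partner in that complex, LARP7 (-0.70). Histone genes have near-identical copies, so the count of a single one is uncertain. Among the histone-modifying enzymes 18 of 41 rose (43.9%) and 11 fell (26.8%), the falls near the share of all genes. The deacetylase gene HDAC5 rose (1.63). Of 18 snoRNA host genes 9 rose (50%) and 5 fell (27.8%), the falls again near the share of all genes. GAS5 (0.87) and SNHG32 (1.30) rose, and DANCR (-1.22) and SNHG3 (-1.85) fell.

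No tested cytokine gene rose in SNT-8, and about as many fell as did not pass. Of 22 tested cytokine genes 12 fell and none rose, beside 25.0% and 24.0% of all genes, with a median of -0.59. IFNG, the gene of interferon gamma, held 176, 172 and 169 CPM with DMSO and 58.8, 57.8 and 54.3 CPM with icaritin, a change of -1.60 (SE 0.0554, adjusted p = 3.48e-24). LTB, the lymphotoxin beta gene, held 153, 165 and 166 CPM and 46.4, 41.5 and 49.1 CPM, a change of -1.82 (SE 0.0622, adjusted p = 3.10e-24), and LTA fell with it (-1.40). In IFNG, LTB and LTA the 3 icaritin libraries were close together and well below DMSO. OSM held 23.6, 25.8 and 26.2 CPM with DMSO and 7.88, 4.71 and 8.16 CPM with icaritin, and IL6 held 19.6, 18.3 and 19.1 CPM and 6.89, 3.01 and 5.90 CPM. For OSM and IL6 icaritin replicate 2 was lowest. Without that library the falls numbered 12 as before, and IL7 and TGFB3 rose. Of the chemokine genes 4 of 15 fell and 2 rose (26.7% and 13.3%), the falls near the share of all genes, with CCL3 among the rises (0.52). CCL5 held 345, 326 and 306 CPM with DMSO and 335, 303 and 323 CPM with icaritin and did not pass (-0.02, adjusted p = 0.705). Of the chemokine and trafficking receptors 8 of 18 fell, with CCR8 at -1.34, and CXCR4 did not pass (0.09, adjusted p = 0.132). Without icaritin replicate 2, CXCR4 rose (0.16, adjusted p = 0.00662), together with S1PR1 and ITGB2.

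Lymphocyte identity genes included rises and falls, and some of their lists stood near the 24.0% and 25.0% of all genes. TBX21, the gene of the lineage factor T-bet, held 91.5, 88.0 and 83.9 CPM with DMSO and 32.9, 28.6 and 35.6 CPM with icaritin, a change of -1.44 (SE 0.0671, adjusted p = 2.82e-20), and the related EOMES fell too (-0.63). PRDM1, the gene of BLIMP1, rose (0.52), as did NFIL3 (1.01) and TOX2 (0.69), and the whole lineage factor list had 11 rises and 7 falls of 25. CTLA4 held 4.86, 5.06 and 3.90 CPM with DMSO and 21.7, 25.5 and 21.6 CPM with icaritin, a change of 2.31 (SE 0.128, adjusted p = 5.16e-18). The icaritin libraries of CTLA4 lay close together. TNFRSF8, the gene of the lymphoma marker CD30, held 538, 552 and 552 CPM and 292, 259 and 328 CPM, a change of -0.90 (SE 0.0527, adjusted p = 4.22e-17), and TNFSF14, which encodes the ligand LIGHT, fell (-1.14). Of 14 T cell receptor and CD3 genes 7 fell and 2 rose. The CD3 chain genes CD3D (-0.58) and CD3G (-0.60), the adaptor gene LCP2 (-0.90) and the adhesion gene CD2 (-0.60) fell. In the NK receptor list 14 of 23 genes did not pass, 3 rose (13%) and 6 fell (26.1%), and SLAMF7 (-0.54) and CD226 (-0.61) were among the falls. In the granule list GZMB rose (0.25), PRF1 (-0.30) and the granzyme A gene GZMA (-0.61) fell, and 8 of 16 did not pass. Of the 3 genes of that list that rose, GZMB alone did so without icaritin replicate 2.

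**Figure D3:**
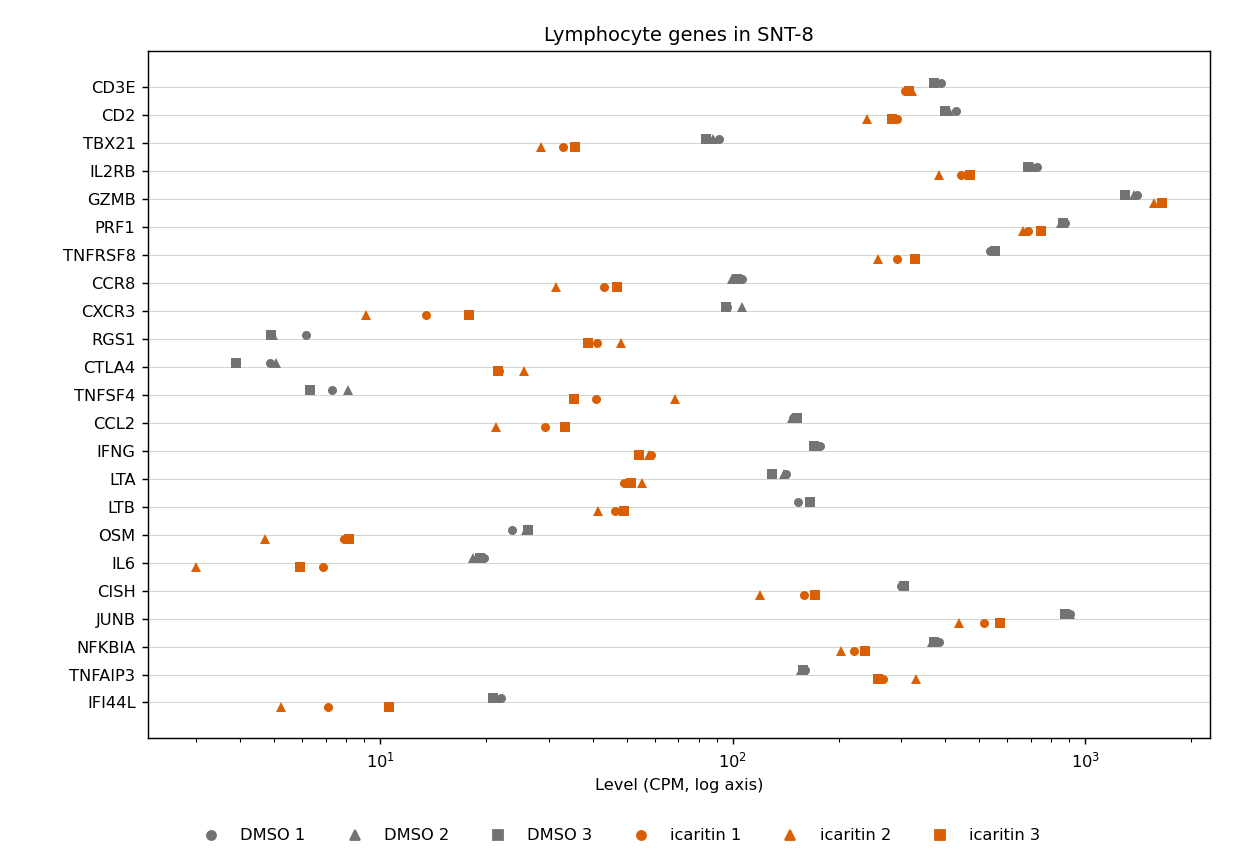
CPM on a log axis of 23 lymphocyte genes in SNT-8, with a point for each of the 3 DMSO and 3 icaritin libraries. RGS1, TNFSF4 and CTLA4 lie higher with icaritin, and CXCR3, CCL2, IFNG and LTB lie lower.

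Signalling downstream of cytokines was uneven. Of the interferon-stimulated genes 19 of 38 fell and 6 rose, beside 25.0% and 24.0% of all tested genes, with a median of -0.29. IFI44L (-1.49) and OAS2 (-0.76) fell, and GBP2 rose (0.69). In the JAK and STAT list 13 of 26 rose (50%) and 7 fell (26.9%), the falls near the share of all genes. JAK1 (0.49), TYK2 (0.45) and STAT3 (0.41) rose. CISH, a feedback inhibitor induced by STAT5, held 299.8, 306 and 305 CPM with DMSO and 159, 119 and 171 CPM with icaritin, a change of -1.02 (SE 0.0821, adjusted p = 8.18e-09). IL2RB, the beta chain of the interleukin-2 and interleukin-15 receptors, fell (-0.71), and IL6ST, the shared receptor chain gp130, rose (0.70). Of the AP-1 and BATF genes 7 of 14 fell and 4 rose, with JUNB at -0.81, JUN at -1.07 and BATF at -0.68. The NF-kB inhibitor gene NFKBIA fell (-0.77) and the feedback gene TNFAIP3 rose (0.85). The phosphatase gene DUSP5, a brake on ERK, held 59.6, 49.6 and 51.8 CPM and 160.0, 172 and 169.7 CPM, a change of 1.64 (SE 0.0607, adjusted p = 2.89e-23). HLA-DMA (-0.63) and HLA-DMB (-0.75), which load class II molecules, fell, and 8 of 13 class II genes did so. CIITA, their activator, did not pass (-0.02, adjusted p = 0.892), and its libraries overlapped. Without icaritin replicate 2 the sign of CIITA turned (0.14, adjusted p = 0.0328). CISH shares its span with MAPKAPK3 (146.5 CPM).

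The largest gains and losses in CPM lay in abundant genes, and they do not rank transcript numbers. They were sought only among genes past the threshold whose groups did not overlap. RNR2 gained the most, 10412 CPM on the mean, followed by EEF1A1 with 1234 CPM and EEF2 with 714 CPM. MMP12 went from 1093, 1046 and 1069 CPM with DMSO to 307, 218 and 304 CPM with icaritin, a change of -1.95 (SE 0.0897, adjusted p = 4.79e-11). The actin gene ACTB held 8402, 8212 and 8084 CPM and 5889, 5550.3 and 6326 CPM, a change of -0.48 (SE 0.0473, adjusted p = 5.57e-11). GAPDH, often used as a reference gene, held 4881, 4864 and 4866 CPM with DMSO and 5148, 5487 and 5184 CPM with icaritin. Its change of 0.11 (SE 0.0425, adjusted p = 0.0235) was small, and it did not pass without icaritin replicate 2 (adjusted p = 0.126), DMSO replicate 2 (adjusted p = 0.0613) or DMSO replicate 3 (adjusted p = 0.0585). Nucleolin RNA, from NCL, held 1552, 1651 and 1793 CPM with DMSO and 901, 841 and 752 CPM with icaritin, a change of -1.002 (SE 0.0673, adjusted p = 3.91e-11).

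Icaritin replicate 2 moved further than its partners for most of the strongly changed genes, though not for all programmes. Of 126 genes of at least 10 CPM that rose at least 2-fold, it was the highest of the icaritin libraries in 92, and of 157 that fell at least 2-fold it was the lowest in 117. Relative to the DMSO mean, the median log2 deviation of the risers was 1.17, 1.39 and 1.17 in icaritin replicates 1, 2 and 3. That of the fallers was -1.08, -1.35 and -1.13. All of these genes were chosen by a change fitted with replicate 2 included, so these counts and medians partly follow from that choice. The mitotic kinase list had medians of -0.23, -0.55 and -0.37 in icaritin replicates 1, 2 and 3. The cholesterol list had -0.65, -0.57 and -0.64, and the ATF4 list 0.78, 0.53 and 1.18. Replicate 2 thus went furthest in the mitotic list and least far in the cholesterol and ATF4 lists.

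**Figure D4:**
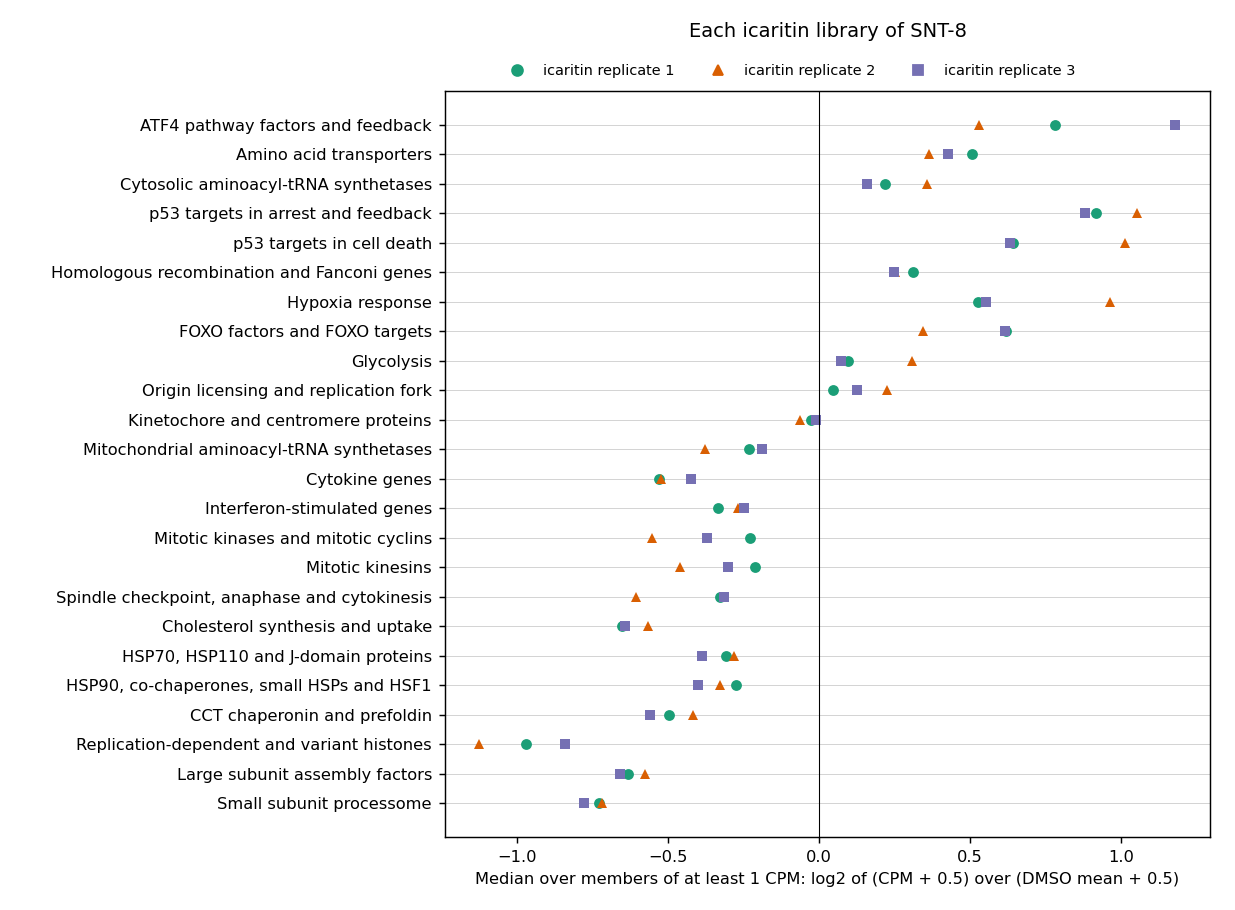
Median log2 deviation from the DMSO mean of each gene list in each of the 3 icaritin libraries of SNT-8, over members of at least 1 CPM. Of the 3 libraries replicate 2 lies furthest from 0 for the mitotic kinases and cyclins at -0.55 and nearest to 0 for the ATF4 list at 0.53.

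Whether the response of SNT-8 differed from that of the other lines was tested gene by gene as a difference of log2 fold changes. The lines share no library. The log2 fold change differed between SNT-8 and SNT-16 for 63 genes (0.438% of those tested), 25 higher and 38 lower in SNT-8, and 2009 genes had an unadjusted p below 0.05. Leaving out 1 SNT-8 library at a time gave between 28 and 178 genes, with the upper value without icaritin replicate 2 and the lower without DMSO replicate 3. Against SNK-10 the change differed for 1551 genes (10.8%), 588 higher and 963 lower in SNT-8. Of the SNT-8 changes 4975 (70.4%) passed in the same direction in SNT-16, which is 82.2% of the SNT-16 changes, and 16 passed in opposite directions. In SNK-10 4815 (68.2% of SNT-8 changes, 69.1% of SNK-10 changes) passed in the same direction and 135 in opposite directions. For scale, of all 14396 tested genes 6051 passed in SNT-16 and 6970 in SNK-10, in either direction.

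Single genes set SNT-8 apart from SNT-16. IFNG changed by -1.60 in SNT-8 and -0.71 in SNT-16, a difference of -0.89 (SE 0.0789, adjusted p = 1.38e-09). BBC3 changed by 1.80 and 1.07, a difference of 0.73 (SE 0.122, adjusted p = 0.00214). Thus interferon gamma RNA fell further and PUMA RNA rose further in SNT-8. SERPINB9, which encodes the inhibitor of granzyme B, changed by 0.35 and -0.18, a difference of 0.53 (SE 0.0832, adjusted p = 9.31e-04). Of 27 cholesterol genes 4 differed, all lower in SNT-8, with INSIG1, ACAT2 and LSS among them. LSS changed by -1.24 in SNT-8 and -0.69 in SNT-16, a difference of -0.54 (SE 0.1001, adjusted p = 0.00397). PLK1 did not differ past the threshold, with a difference of -0.03 (SE 0.250, adjusted p = 0.984). The 63 genes that differed became 30 without DMSO replicate 1, 28 without DMSO replicate 3, and 115, 178 and 95 without icaritin replicate 1, 2 and 3.

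Against SNK-10 many immune genes differed. Of the 24 cytokine receptor genes 11 differed, all with a lower change in SNT-8. Of 22 cytokine genes 8 differed, all lower in SNT-8, and of 38 interferon-stimulated genes 15 differed, with 13 lower, beside 10.8% of all genes. NFKBIA changed by -0.77 in SNT-8 and -0.04 in SNK-10, a difference of -0.72 (SE 0.0693, adjusted p = 1.76e-09). Of 27 cholesterol genes 16 differed, 14 of them lower in SNT-8. FADS2 changed by 1.31 in SNT-8 and -0.52 in SNK-10, a difference of 1.83 (SE 0.141, adjusted p = 9.02e-12). Among p53 arrest genes 7 of 18 differed and none of these was lower in SNT-8, and among mitotic kinases and cyclins 6 of 20 differed, all lower in SNT-8. PLK1 changed by -1.78 in SNT-8 and -1.23 in SNK-10, a difference of -0.55 (SE 0.246, adjusted p = 0.202).

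**Figure D5:**
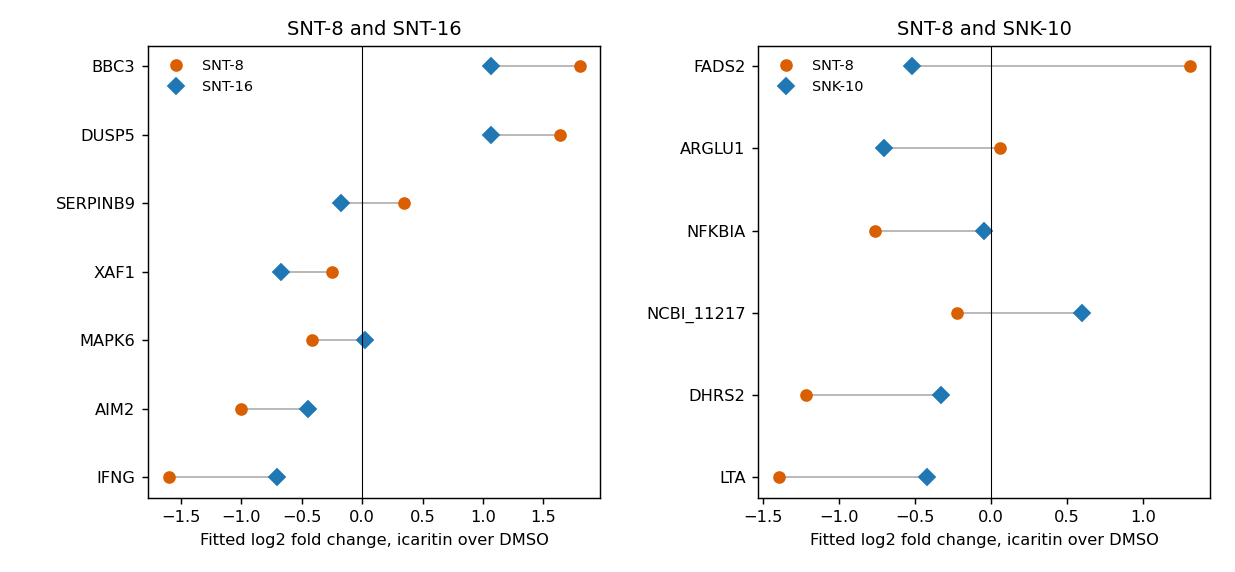
Fitted log2 fold changes, icaritin minus DMSO, of 7 genes whose response differed between SNT-8 and SNT-16 and of 6 for SNT-8 and SNK-10, at 10 CPM or more. IFNG lies at -1.60 in SNT-8 and -0.71 in SNT-16, and FADS2 at 1.31 in SNT-8 and -0.52 in SNK-10.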

How the data were processed

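RNA was extracted from SNT-8 cells after 12 h with DMSO or icaritin, 3 libraries each. The authors' deposited tables give, per gene and library, an expected count and an FPKM value (fragments scaled for gene length and depth). Bowtie2 and HISAT are named, without versions, per the submitters' processing notes; the genome build, like the counting tool, was not given in the sources used here. Expected counts were rounded, and a gene missing from a library's table was set to 0. Of 21662 gene identifiers 21559 were named by RefSeq gene ID and 7 by transcript, and 96 stayed unnamed.

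Counts of all 18 libraries were fitted in edgeR 4.0.16 (R 4.3.3) with TMM scaling (factors 0.9315 to 1.052), filterByExpr (minimum count 10, minimum total 15), a mean for each of 6 groups and the quasi-likelihood test, with 12 residual degrees of freedom and Benjamini-Hochberg adjustment at 0.05. The common biological coefficient of variation was 4.43%. Simulated data for 14257 genes held 50 changed genes at each size of change. The SNT-8 test recovered 68% of genes changed 1.5-fold, 88% of those changed 2-fold, 98% at 3-fold and 100% at 4-fold. Of all its calls 5.35% were false. As many genes were raised as lowered, and the spread was taken from the fit itself. The real data, with 7062 calls, lie outside that setting, so these rates may not hold for them. Alternatives used DESeq2 1.42.0 and, on log2(FPKM + 0.1) and log2(FPKM + 1), limma 3.58.1.

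Named genes are PLK1, the 15 largest rises and falls of at least 10 CPM, and the 8 largest gains and losses in CPM. Only genes past the threshold whose groups do not overlap could enter these rises, falls, gains and losses. Genes near silent in a group and, for each difference between lines, the 8 genes with the smallest p were named too. So were the 4 genes with the smallest p of each list and members named for their role, these last after their values were seen. A few genes that these rules name are not reported here. The genes and lists were chosen with earlier results of these data known. The labels do not say whether the replicate numbers pair the samples. The deviations of same-numbered SNT-8 libraries from their group means correlated at -0.0271, -0.0884 and -0.113. Deviations from a mean of 3 libraries depend on each other, so these values cannot settle the question.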

Additional observations from a re-analysis of the deposited data

Results flagged for a closer look

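The response of SNT-8 differed from that of another line, past the threshold of edgeR's quasi-likelihood test of the difference, for the 13 genes given here, which are among the 8 with the smallest p for each line at 10 CPM or more. Against SNT-16 the log2 fold change of SNT-8 was lower for IFNG (a difference of -0.89), MAPK6 (-0.43) and AIM2 (-0.56). It was higher for DUSP5 (0.57), SERPINB9 (0.53), BBC3 (0.73) and the interferon-stimulated gene XAF1 (0.42). AIM2, a sensor of cytosolic DNA, changed by -1.002 in SNT-8 and -0.44 in SNT-16. Against SNK-10 it was lower for DHRS2 (-0.89), LTA (-0.97), NCBI_11217 (-0.82) and NFKBIA (-0.72), and higher for FADS2 (1.83) and ARGLU1 (0.76). FADS2, ARGLU1 and NCBI_11217, a gene identifier without a symbol in the tables used, had fitted changes of opposite sign in the 2 lines. ARGLU1 did not pass in SNT-8 (0.06, adjusted p = 0.317) and changed by -0.70 in SNK-10.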

How the results depend on the processing

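The count of SNT-8 changes stayed within 1.5 times of 7062 in every alternative run, from 6221 with the 6 SNT-8 libraries alone and a replicate block to 7058 with a filter of 1 CPM in 3 libraries. Leaving out 1 SNT-8 library at a time gave 6379 to 6741. With the replicate number as a block in the fit of all libraries, 6847 genes passed, 47 differed from SNT-16 and 1352 from SNK-10. Whether the numbers pair the samples is not known. On log2(FPKM + 0.1) limma called 3814 rises and 3113 falls, and on log2(FPKM + 1) 3874 and 3145, so rises outnumbered falls there, beside 3460 and 3602 on counts. On the log2(FPKM + 1) scale 260 genes changed at least 2-fold, beside 743 on counts. That scale shrinks changes of weakly counted genes by its construction. The difference between SNT-8 and SNT-16 was the least stable count: 279 genes without a filter, 115 with the DESeq2 Wald test and 28 to 178 with 1 library left out, beside 63. Against SNK-10 the count ran from 1265 to 1677 with 1 library left out. The gain of the mitochondrial 16S rRNA was 1.508 percentage points of summed FPKM, beside 1.10 of counts, and 0.895 to 1.228 with 1 library left out. Of 347 named genes that passed, 335 kept their call in every alternative that tested them and 12 lost it in at least 1. CIITA, which did not pass, stood at -0.02, at 0.14 without icaritin replicate 2 (adjusted p = 0.0328) and between -0.16 and 0.14 over all single omissions, and the cause was not tested. Under 1 CPM, 7.7% of 1362 genes rose and 3.8% fell, where counts are few.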

Other observations

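Families picked by gene symbol are given as values, beside 24.0% of all tested genes that rose and 25.0% that fell. Genes of the lists above can recur in them. They also hold genes that only share a symbol, such as DDX11-AS1 among the DEAD-box genes and NDUFA6-DT among the complex I genes. Of 443 tested genes with a ZNF symbol, which encode zinc finger proteins, 127 rose (28.7%, near the share of all genes) and 49 fell (11.1%), with a median log2 fold change of 0.15 beside 0.02 for all genes, and of 354 long intergenic RNA genes 58 rose (16.4%) and 17 fell (4.8%), both below those shares. Of 41 genes with the symbols of DEAD-box helicases, which remodel RNA, 21 fell and 7 rose. Of 54 translation initiation factor genes 29 fell and 14 rose. ATP synthase genes fell in 13 of 20 cases and rose in none, and of 48 complex I genes 20 fell and 4 rose.

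Among zinc transporter and metallothionein genes 9 of 21 rose (42.9%) and 6 fell (28.6%), beside 24.0% and 25.0% of all tested genes. SLC39A10 (-2.19) was among the falls. In the list of NRF2, thioredoxin and glutathione genes 11 of 27 fell (40.7%) and 6 rose (22.2%), the rises near the share of all genes. Class I antigen presentation genes fell in 7 of 16 cases and rose in 1.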
